A study of Mus musculus with 4 samples.

Results

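The 10 Notch genes described here are the receptors Notch1, Notch2, Notch3 and Notch4, the ligands Dll1, Dll4, Jag1 and Jag2, and the target genes Hey1 and Hey2. They were taken by name: every non-control probe whose gene name is one of these symbols belongs to the set, which gave 14 probes of 41174 on the array and 10 of the 18457 gene names with a tested probe. The rule itself uses no measured value.

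RNA came from mouse heart tissue whose source label abbreviates the left ventricle as LV, taken 7 days after myocardial infarction (MI), for which the left anterior descending artery of the heart was ligated for good at 8 to 10 weeks of age, per the study's methods. WT arrays are wild-type littermates, and KO arrays come from KDM5B-knockout mice, in which CRISPR/Cas9 removed the stretch of Kdm5b that encodes the JmjC domain and shifted the reading frame. The line is on a C57BL/6 background, every sample is labelled male, and both groups had undergone MI, so no uninjured heart is part of the comparison. Each group has 2 arrays, called WT 2, WT 3, KO 2 and KO 3 after the numbers in the sample titles. The labels do not say whether an array holds 1 mouse or a pool, so p-values measure the spread between these 4 samples, which may be technical. The question was which Notch genes differ in level between infarcted hearts with and without KDM5B, a histone demethylase that removes methyl groups from lysine 4 of histone H3.

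Notch signaling passes between touching cells. A ligand of the Delta or Jagged family on 1 cell binds a Notch receptor on its neighbour, the receptor is cut by an ADAM protease and then by γ-secretase, and the freed intracellular domain joins RBPJ in the nucleus to turn on genes such as those of the Hes and Hey families, which encode transcriptional repressors. In the heart, NOTCH1, NOTCH4 and DLL4 are best known from endothelial cells, NOTCH3 from smooth muscle cells and pericytes, and Hey1 and Hey2 from arterial vessels and heart development.

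The sequences below are the first 30 of the 60 bases of 8 member probes, 5′ to 3′, with the mm9 position of the whole probe as the files give it. They are the brightest probe of each of the 5 genes whose KO and WT arrays did not overlap and the 3 probes of Notch2, which differed in level. A second Notch1 probe, described below, is left out. All letters are in lower case because no part of them is singled out. Whether a probe lies in an exon, an intron or a UTR was not looked up here.
Notch1 (chr2:26314772-26314830, minus strand): ggcactaggggaaaaacatatctgttccaa
Notch4 (chr17:34725120-34725179, plus strand): gttgatttcgagaatccctaaactctggaa
Dll4 (chr2:119160779-119160838, plus strand): tttgcccagactccatcctcacagctgggc
Hey1 (chr3:8663432-8663491, minus strand): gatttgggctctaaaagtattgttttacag
Dll1 (chr17:15504623-15504682, minus strand): gattactatgagccagtctttccttgaact
Notch2, brightest probe (chr3:97953914-97953973, plus strand): ccacttgaagtcttgcatagaaatgaacca
Notch2, middle probe (chr3:97952843-97952902, plus strand): tctgtggtaatctaggatgatagttttctc
Notch2, dimmest probe (chr3:97951205-97951264, plus strand): cccagagtctcctgaccaatggtcaagctc

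Levels below are log2 processed signals minus the 75th percentile of the same array, so 0 is that percentile and a difference of 1 is 2-fold. They compare arrays for 1 probe and do not rank genes against each other. A gene with several probes is represented by the brightest. Probes that stood well above background on both WT or both KO arrays were tested, and a probe was called at a limma adjusted p under 0.05 with a fold over 2. All 10 representative probes were well above background on all 4 arrays.

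The arrays differed in ways that genotype does not describe. The 75th percentile signal was 876 on WT 2 and 976 on WT 3, against 608 on KO 2 and 885 on KO 3. The arrays of number 2 carried Xist, the RNA of the inactive X chromosome, at 4.36 in WT and 3.997 in KO, against -8.01 and -7.78 on those of number 3. Ddx3y, on the Y chromosome, ran the other way, at -7.65 and -7.62 on the number 2 arrays and 1.95 and 1.65 on the number 3 arrays, although all samples are labelled male. KO 2 also stood apart in its atrial list of 4 genes, whose mean was 6.76 there and 0.06 to 1.42 on the other arrays. This lay in Sln, Myl7 and Myl4, and Sln was not well above background on WT 2. Nppa, also of the list, read 8.81 and 8.54 in WT and 9.24 and 8.56 in KO. Of the 4 genes of the adipocyte list, 2 were tested. Their mean was 0.80 on KO 2 against -5.40 to -4.41 on the other arrays. The atrial signal of KO 2 goes against its label of ventricle. For these reasons the difference of every member is also given between the arrays of each number, with 1 array per genotype and no test. The brighter probe of the targeted gene read -0.87 and -1.81 in WT and -2.40 and -2.26 in KO. The lower level in KO amounted to a difference of -0.996 (SE 0.40, limma adjusted p = 0.9999), and a second probe gave -1.19. The difference of the brighter probe was -1.53 at number 2 and -0.46 at number 3, -0.529 without WT 2 and -1.46 without WT 3, so its size rested on which WT array was used. Both probes stayed well above background in KO, and their place relative to the deleted stretch was not looked up here.

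None of the 10 members was called, and none reached an unadjusted p under 0.05. Over the 28305 tested probes, 0% were called and 1.45% had such an unadjusted p, and every member's adjusted p was 0.9999. 6 members had a higher mean in KO and 4 a lower one, where 52.3% of tested probes were higher in KO. The median KO minus WT difference of the members was 0.13, and that of all tested probes was 0.02. No member differed by over 2-fold between the group means, against 3.35% of tested probes. With 2 arrays in each group an exact two-sided permutation test cannot give a p under 0.333, so these counts do not show that the levels were alike.

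**Figure D1:**
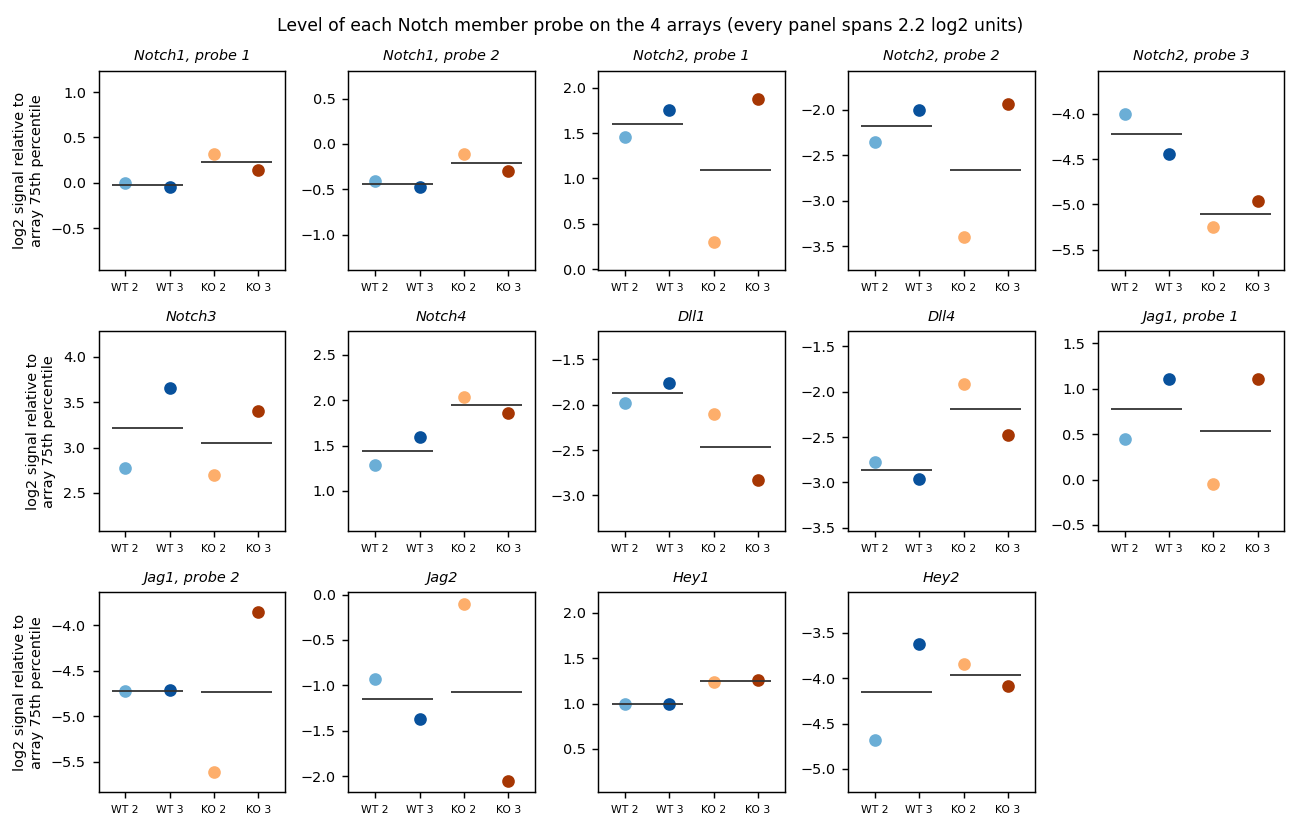
Level of the 14 probes of the 10 Notch genes on the 4 arrays (log2 signal relative to the array's 75th percentile), 1 panel per probe and 1 point per array, with group means as lines. Of the representative probes, both KO points lie above the WT points for Notch1, Notch4, Dll4 and Hey1 and below them for Dll1, while the other 5 genes overlap.

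In 4 members, Notch1, Notch4, Dll4 and Hey1, the lower KO array exceeded the higher WT array. In 1 member, Dll1, both KO arrays lay below. Of all tested probes, 13.1% lay above, 10.9% below and 23.9% in either way, so the member counts, 4 and 1 of 10, stand beside a background of that size. KO 2 held the highest level of 4 members (Notch1, Notch4, Dll4 and Jag2) and the lowest of 3 (Notch2, Notch3 and Jag1), where it was the highest array for 39.1% of tested probes and the lowest for 41.4%.

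Among the receptors, Notch4 and Notch1 had representative probes with separated groups. Notch4 encodes the receptor found mostly on endothelial cells. Its level was 1.28 on WT 2 and 1.60 on WT 3, against 2.03 on KO 2 and 1.86 on KO 3. Both KO arrays were above both WT arrays, with means of 1.95 ± 0.12 in KO and 1.44 ± 0.22 in WT (SD, n = 2). The difference was 0.51, or 1.42-fold (SE 0.24, limma adjusted p = 0.9999). It was 0.75 at number 2 and 0.27 at number 3, a shared sign that groups without overlap always give.

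Notch1, the receptor best known from sprouting and arterial endothelium, read -0.0026 on WT 2 and -0.04 on WT 3, against 0.32 on KO 2 and 0.14 on KO 3. The KO arrays were higher, by 0.25 on average, or 1.19-fold (SE 0.21, limma adjusted p = 0.9999), with 0.32 at number 2 and 0.19 at number 3. This probe was printed 10 times on each array, and the spots of 1 array had an SD of 0.02 to 0.05. On WT 2 they ran from -0.11 to 0.06, on WT 3 from -0.11 to 0.02, on KO 2 from 0.29 to 0.37 and on KO 3 from 0.06 to 0.21. The KO 2 spots did not overlap those of either WT array, while the lowest KO 3 spot lay just below the highest WT 2 spot. A second Notch1 probe, which shares 1 base position with the first, gave -0.41 and -0.47 in WT and -0.11 and -0.30 in KO, a difference of 0.23 (SE 0.21). Since their sites touch, the probes are not independent measures of the transcript.

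Notch3, the receptor of smooth muscle cells and pericytes, overlapped between groups. It read 2.77 and 3.66 in WT and 2.70 and 3.40 in KO, for arrays of number 2 and 3 in turn. The number 3 array was the higher in both genotypes, by more than the genotypes differed. The KO minus WT difference was -0.17 (SE 0.46), with -0.07 at number 2 and -0.26 at number 3.

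Notch2, a receptor expressed in many cell types, changed direction between the array numbers. Its brightest probe read 1.46 on WT 2 and 1.75 on WT 3, against 0.30 on KO 2 and 1.88 on KO 3, so KO 2 alone stood low. The mean difference was -0.52 (SE 0.62), made of -1.16 at number 2 and 0.13 at number 3. Notch2 was the only member over 2-fold lower at number 2, where 8.84% of tested probes were. The middle probe, 1011 bases away, behaved alike, with -2.35 and -1.9995 in WT, -3.396 and -1.94 in KO and a difference of -0.49. The dimmest probe read -4.00, -4.45, -5.25 and -4.96 in the same order of arrays, with both KO arrays below both WT arrays. Its difference was -0.88 (SE 0.28), with -1.24 at number 2 and -0.51 at number 3. It was the only member probe with an unadjusted limma p under 0.05 (0.0377, adjusted p = 0.9999). The 3 probes thus gave 1 sign at number 2 and both signs at number 3.

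**Figure D2:**
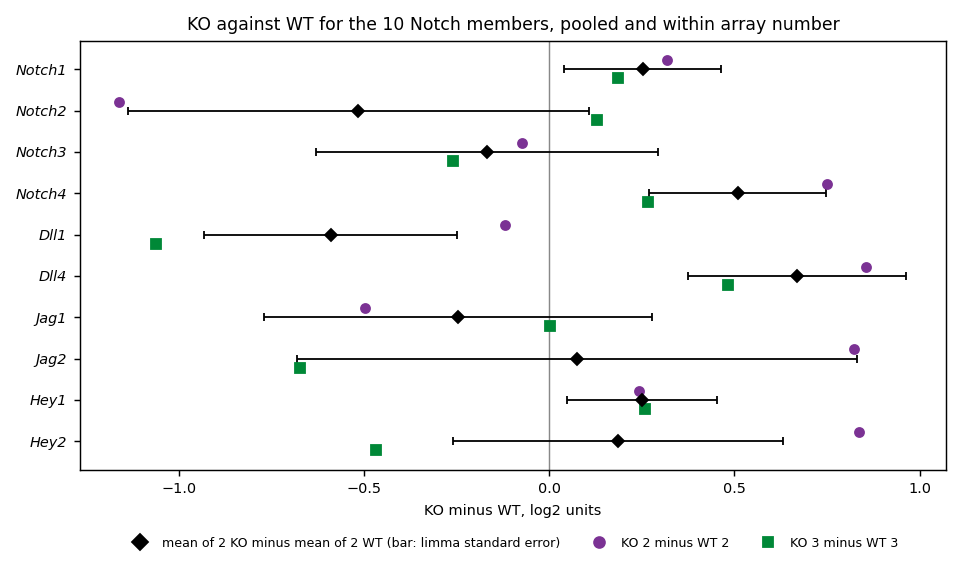
KO minus WT difference (log2) of each Notch gene between the group means with its limma SE, and between the arrays of number 2 and of number 3. The differences at the array numbers have opposite signs for Notch2, Jag1, Jag2 and Hey2 and the same sign for the other 6 genes.

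Among the ligands, Dll4 and Dll1 lay apart between groups, in opposite directions. Dll4, the Delta ligand of endothelial tip cells and arteries, read -2.77 on WT 2 and -2.96 on WT 3, against -1.92 on KO 2 and -2.48 on KO 3. Both KO arrays were higher, with a mean of -2.20 ± 0.40 against -2.87 ± 0.13 in WT (SD, n = 2). The difference of 0.67, or 1.59-fold (SE 0.29, limma adjusted p = 0.9999), was the largest upward one among the members. It was 0.86 at number 2 and 0.48 at number 3. Without KO 2, the array with the atrial and adipocyte signal, the Dll4 difference was 0.39. Those of Notch4, Notch1 and Hey1 were 0.42, 0.17 and 0.26. Their sign was fixed in advance, because KO 3 lay above both WT arrays in all 4.

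Dll1, a Delta ligand also found on arterial endothelium, read -1.98 on WT 2 and -1.76 on WT 3, against -2.10 on KO 2 and -2.82 on KO 3. Both KO arrays were lower, by 0.12 at number 2 and by 1.06 at number 3. Hence KO 3 held most of the difference, which was -0.59 between the group means (SE 0.34, limma adjusted p = 0.9999). Dll1 was the only member over 2-fold lower at number 3, where 1.78% of tested probes were. None was over 2-fold higher at either number, against 6.19% of tested probes at number 2 and 2.23% at number 3. The Dll1 probe was also printed 10 times, with a spot SD of 0.08 to 0.13. Its KO 3 spots ran from -3.09 to -2.65 and its KO 2 spots from -2.24 to -1.95. All spots of KO 3 lay below all those of the other arrays, whereas the KO 2 spots overlapped the WT 2 spots, which ran from -2.10 to -1.88. Without KO 2 the difference was -0.95, and without KO 3 it was -0.23. With normexp background correction it was -0.27.

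**Figure D3:**
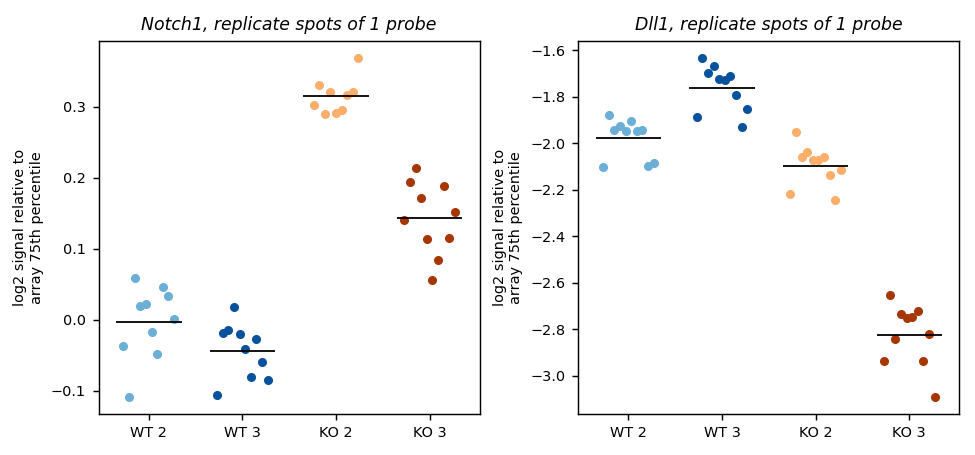
Replicate spots of the Notch1 probe (left) and the Dll1 probe (right) on each array, as log2 signal relative to the array's 75th percentile, with the array mean as a line. The KO 2 spots of Notch1 stand above all WT spots, and the KO 3 spots of Dll1 lie below those of every other array.

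The Jagged ligands did not separate the groups. Jag1, which is expressed in endothelium, smooth muscle and fibroblasts, read 0.45 and 1.10 in WT and -0.05 and 1.11 in KO at numbers 2 and 3. KO 2 was low and the number 3 arrays were nearly level, so the difference was -0.50 at number 2 and 0.003 at number 3, and -0.25 overall (SE 0.52). A dimmer Jag1 probe, 1449 bases away, read -4.73 and -4.71 in WT and -5.62 and -3.85 in KO, and was not well above background on KO 2. Jag2 read -0.93 on WT 2 and -1.38 on WT 3, against -0.10 on KO 2 and -2.05 on KO 3. Its KO arrays were the highest and the lowest of the 4, and the difference of 0.08 (SE 0.76) joined 0.82 at number 2 with -0.67 at number 3.

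Of the 2 Hey genes, Hey1 had nearly equal arrays within each genotype. It read 0.995 and 0.997 in WT and 1.24 and 1.26 in KO, in the order of the numbers. Both KO arrays were higher, and the difference of 0.25, or 1.19-fold (SE 0.20, limma adjusted p = 0.9999), was 0.24 at number 2 and 0.26 at number 3. The gap between the WT arrays was smaller than the SD of the Notch1 replicate spots on any array, so the closeness of 2 arrays says little about the spread of Hey1 between mice. Limma's SE draws the spread of each probe toward that of all probes, while the methods' t-test, which uses the spread of Hey1 alone, gave an unadjusted p of 0.00106 and a Benjamini-Hochberg adjusted p of 0.9999.

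Hey2 read -4.68 on WT 2 and -3.62 on WT 3, against -3.85 on KO 2 and -4.09 on KO 3. Both KO arrays fell between the WT arrays. The difference was 0.18 (SE 0.45), with 0.84 at number 2 and -0.47 at number 3. In all, 4 of 10 members (Notch2, Jag1, Jag2 and Hey2) differed in sign between the numbers, against 53.4% of tested probes. The median difference of the members was 0.28 at number 2 and 0.07 at number 3.

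Several of these genes are endothelial, and in whole tissue fewer cells of a type and less RNA per cell cannot be told apart. The mean of 12 endothelial markers, none of them a member and all well above background, was 2.24 on WT 2 and 2.46 on WT 3, against 2.73 on KO 2 and 2.18 on KO 3. It was highest on KO 2 and lowest on KO 3, so the KO arrays bracketed the WT arrays. Set against this mean on each array, Notch4 read -0.96 and -0.86 in WT and -0.70 and -0.31 in KO. Both KO arrays of Notch4 thus stayed above WT, and so did those of Dll4, at -4.64 and -4.65 in KO against -5.01 and -5.42 in WT. Dll1 stayed below, at -4.83 and -5.00 in KO against -4.22 on both WT arrays. Notch1 then overlapped, at -2.24 and -2.50 in WT and -2.41 and -2.03 in KO, and so did Hey1, at -1.25 and -1.46 in WT and -1.49 and -0.92 in KO. On this scale 4.32% of tested probes lay above in KO and 7.08% below. No single member was called on it either.

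Some means of other marker lists had the same order of the 4 arrays as some members. An order does not give the size of a difference. The mean of 6 smooth muscle markers was 3.05 and 3.65 in WT and 2.999 and 4.05 in KO, for numbers 2 and 3. The mean of 8 macrophage markers was 3.14 and 3.53 in WT and 1.99 and 3.84 in KO. Both had KO 3 highest, followed by WT 3, WT 2 and KO 2, as did the means of the neutrophil and mesothelial lists. That is the order of Notch2 and Jag1 and of 18.2% of tested probes. The mean of 12 cardiomyocyte markers was 6.24 and 5.15 in WT and 7.24 and 4.32 in KO, and the mean of 6 pericyte markers was 2.42 and 2.33 in WT and 2.83 and 2.20 in KO. These had KO 2 highest, followed by WT 2, WT 3 and KO 3, as Jag2 did and as 17.5% of tested probes did. The atrial list mean had KO 2 highest, followed by KO 3, WT 3 and WT 2, as Notch4 did and as 2.69% of tested probes did. The mean of 9 fibroblast markers was 5.49 and 5.61 in WT and 4.63 and 5.40 in KO. The part of cell makeup in the member values was not tested.

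**Figure D4:**
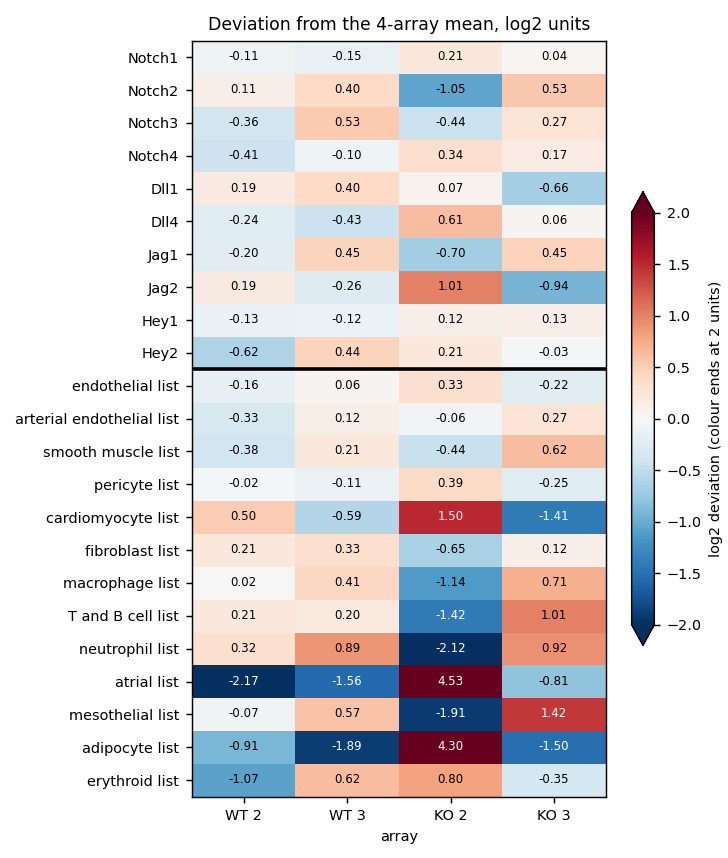
Levels of Notch genes and mean levels of cell type marker lists on the 4 arrays, each relative to its own mean over the arrays (log2). KO 2 stands apart in several lists. Notch2 and Jag1 have the array order of the macrophage, smooth muscle, neutrophil and mesothelial lists, and Notch4 has that of the atrial list.

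The arterial endothelial markers, which share the vessel type of Dll4 and Hey1, were not called. The mean of the 5 tested genes was 0.45 and 0.89 in WT and 0.72 and 1.04 in KO. Within each number the KO array was the higher, while WT 3 lay above KO 2. Single differences were 0.27 for Efnb2, which encodes the arterial ephrin-B2 (0.54 for a second probe), 0.35 for the connexin gene Gja5, 0.00 for the connexin gene Gja4, 0.13 for the transcription factor gene Sox17 and 0.29 for the VEGF co-receptor gene Nrp1. Bmx, a kinase gene, was not tested because it was too dim.

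Of 50 other listed Notch pathway names, 49 were on the array and 47 were tested. None was called, 20 were higher and 27 lower in KO, and the median difference was -0.02. Both KO arrays lay above WT for 6 and below for 4, where 13.1% and 10.9% of all tested probes did. The 6 include Hes5, tested through its KO arrays alone, and the 4 include Dner, tested through its WT arrays alone. For such genes the filter favours the direction counted. At the array numbers the median was -0.11 at number 2 and 0.09 at number 3, and 27 of the 47 differed in sign, against 53.4% of tested probes. Among the other ligands, Dlk2 differed by 0.46 with overlapping groups, and the probes of Dlk1 disagreed, at 0.31 for the brighter and -0.61 for a dimmer one that was not well above background on KO 2. Dll3 was not well above background on any array. Dner, an atypical ligand gene, was well above background on both WT arrays and on neither KO array, at -4.85 and -5.29 in WT. It was therefore tested through its WT arrays alone. The fitted difference was -1.30 (SE 0.72, limma adjusted p = 0.9999), but the KO signals were too dim to give its size. At number 3 the difference was -0.17. A second Dner probe was not well above background on any array.

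Among the 15 processing genes, which encode the proteases and sugar-transferring enzymes that prepare and cut the receptors, 8 were higher and 7 lower. The 7 include Aph1c, tested through its WT arrays alone because it was not well above background on KO 2. Aph1a, a γ-secretase subunit gene, had the largest upward difference with separated groups. It read -1.08 and -1.16 in WT and -0.59 and -0.61 in KO, a difference of 0.52 (SE 0.20, limma adjusted p = 0.9999) that was 0.49 at number 2 and 0.55 at number 3. The Fringe genes, whose enzymes set which ligands a receptor answers to, did not separate: Mfng differed by 0.03, and the probes of Lfng disagreed, at -0.48 for the brighter and 0.28 for the dimmer one. Of the 13 tested genes of endocytosis and turnover, 4 were higher and 9 lower. Dtx3, of the Deltex ubiquitin ligase family, read 0.96 and 0.98 in WT and 0.31 and 0.43 in KO. Both KO arrays were lower, by 0.65 and by 0.55 at the numbers, and its unadjusted limma p of 0.0478 was the only one under 0.05 among the pathway genes (difference -0.60, SE 0.21, adjusted p = 0.9999). Neurl1b, which encodes a ligase acting on ligands, differed by 0.48 and Mib2, another of these, by -0.22. Numb, an inhibitor of the receptors, differed by -0.08.

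Of the 11 tested nuclear genes, 3 were higher and 8 lower. Rbpj, which encodes the DNA-binding partner of the receptors, read 0.30 and -0.04 in WT and -0.06 and 0.30 in KO, a difference of -0.01. The groups of Rbpj spanned the same range. Ctbp1, a corepressor gene, differed by 0.22 and Kat2b, an acetyltransferase gene, by -0.15, both with separated groups. A dimmer tested Kat2b probe differed by -0.02, and its groups overlapped. Of the 5 other targets, 3 were higher and 2 lower. Hes1 read -2.41 and -2.22 in WT and -2.37 and -2.91 in KO, and Heyl read 1.81 and 2.41 in WT and 1.39 and 2.59 in KO. Neither separated the groups. Nrarp, which encodes a feedback inhibitor of Notch, read -2.72 and -2.62 in WT and -1.62 and -2.56 in KO. Its KO arrays were higher, by 1.10 at number 2 and by 0.07 at number 3 (difference 0.58, SE 0.40), so KO 2 carried nearly all of it. Hes5 read -4.91 on WT 3 and -4.64 and -4.59 in KO, and was not well above background on WT 2. Hes5, among the 3 higher, was therefore tested through its KO arrays alone.

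**Figure D5:**
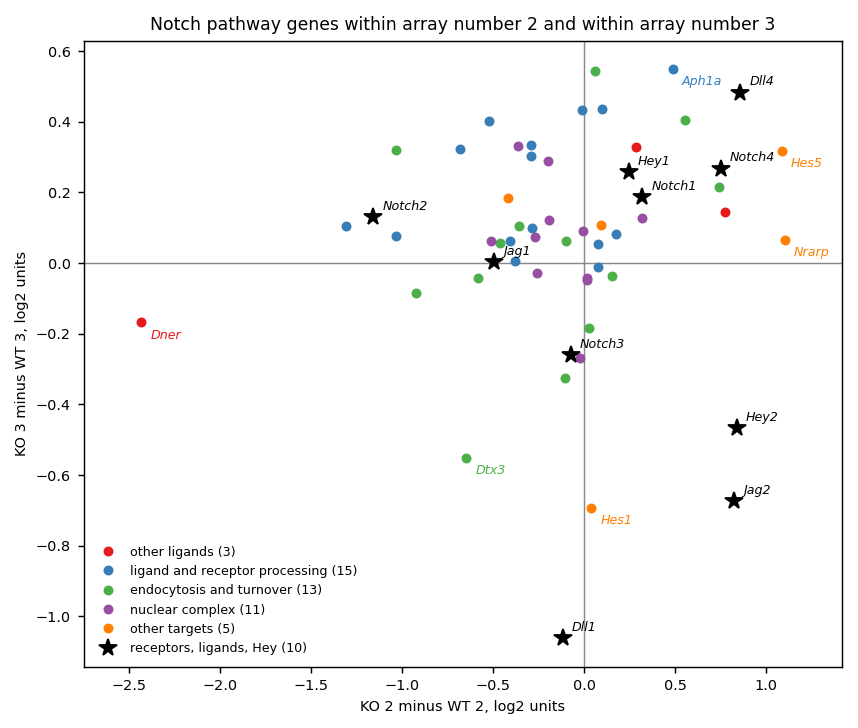
KO minus WT difference (log2) at number 2 against that at number 3 for the 10 Notch members and the other tested pathway genes, 1 point per gene. Of the members, Dll4, Notch4, Notch1 and Hey1 lie above 0 on both axes, and Dll1 and Notch3 below 0 on both. Aph1a is among the pathway genes above 0 on both, and Dtx3 among those below. Genes whose KO and WT arrays do not overlap always share 1 sign on both axes.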

How the data were processed

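Total RNA was labelled with Cy3 and hybridised to Agilent 1-colour whole mouse genome arrays. Per the file headers, intensities were extracted with Feature Extraction 10.7.3.1 on an mm9 grid, and the deposited processed signal is an intensity after background subtraction. The authors normalized with GeneSpring, and the deposited log2 value table was used as an alternative: its columns all have a median of 6.784 and match quantile-normalized log2 signals. Well-above-background flags deposited as other values chose the probes to test.

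Signals of 45018 spots per array (43379 non-control) were put on the log2 scale. They were then averaged over spots of a probe after outlier flags were dropped, and reduced by each array's 75th percentile. Limma 3.58.1 in R 4.3.3 (lmFit, eBayes, Benjamini-Hochberg) was fitted to 28305 probes on all 4 arrays with no covariate, and 12863 probes were too dim. Calls needed an adjusted p under 0.05 and a fold over 2. The fit was tested on simulated data with independent noise on each array, which checks the code and not the power on these arrays. The number of arrays limits the precision. All arrays share 1 slide and 1 scan day. Named genes were the members, Kdm5b, fixed pathway genes, the arterial markers, and the 3 largest upward and 3 largest downward differences with separated groups among other pathway genes above background. The members and lists were chosen with earlier results of these data known. Symbols of all 10 members and all 49 pathway genes on the array were found in RefSeq.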

Additional observations from a re-analysis of the deposited data

Results flagged for a closer look

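In 4 members the KO minus WT difference had opposite signs at array number 2 and number 3, with 1 array per genotype at each number, and the difference between them was not tested. The difference at number 2 minus that at number 3 was -1.29 for Notch2, -0.50 for Jag1, 1.50 for Jag2 and 1.30 for Hey2 on the log2 scale. Of all tested probes, 53.4% had opposite signs.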

How the results depend on the processing

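No member and no pathway gene was called under any alternative run. Over all probes, 0 were called under every alternative but the methods' t-test without adjustment, by which 88 probes and no member passed both p and fold. At an unadjusted p under 0.05 alone, that test counted 879 probes and limma 410. Settings of the filter, the block and the variance leave a difference as it is. Only changes of scaling, of background correction, of arrays or of the probes used for a gene could move one. With the mean of all tested probes of a gene, Notch2 was -0.63, Jag1 -0.13 and Notch1 0.24. With no shift between arrays, which moves every probe by the same amount, Notch1 was -0.0826, Jag2 -0.260, Hey1 -0.0841 and Hey2 -0.150, and the median of the members was -0.205 while that of all probes was -0.32. Relative to the endothelial list mean, a scale chosen after seeing the data, Jag2 was -0.0276. With 1 array left out at a time, the difference ran from -1.31 to 0.28 for Notch2, from -0.61 to 0.28 for Notch3, from -0.82 to 0.33 for Jag1, from -0.90 to 1.05 for Jag2 and from -0.35 to 0.72 for Hey2, and the median of the members from -0.0482 to 0.274. With the array number as a replicate block, 0 probes and 0 members were called and the block changed no call. The labels tie the 2 pairs by number alone, the arrays of a number also share their sex-linked RNA, and their deviations from the group means correlated at 0.569. Members reached an unadjusted p under 0.05 in some settings: Dll4 with normexp (of 1162 probes), Dll1 with no shift (of 334), Hey1 by the methods' t-test (of 879), Dll1 and Jag2 without KO 2 (of 1695), and Notch2, Dll4 and Jag2 without KO 3 (of 7278), where the lone KO array is assumed to vary like WT. A block for slide or scan day was not run because all arrays share both.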
